A study of Mus musculus with 9 samples.

Results

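Hearts whose sample titles begin with the letters WA were compared with hearts whose titles begin with WC, across all genes of the deposited count table. The 6 libraries concerned, of 9 in the series, were chosen by the letters that open the title. They are WA_127, WA_130 and WA_132 against WC_3, WC_182 and WC_184, and poly(A) RNA was sequenced from each. All 6 came from heart tissue of C57BL/6 mice, an inbred strain, and no label gives an age, a sex, a genotype, a dose or a duration of treatment. The treatment label crosses the title letters. WA_127 and WA_130 are labelled PBS (a salt buffer), and WA_132 is labelled Ang II (angiotensin II, a hormone that constricts vessels). WC_184 is labelled PBS, while WC_3 and WC_182 are labelled Ang II. What the letters and the numbers in the titles mean is not explained by the labels, and the protocol text names an adipose type although the source is given as heart. Whether each library stands for its own animal is not stated. The p-values therefore measure only how far these samples lie apart, and that spread may be technical. The remaining 3 libraries, titled KKA, carry the label Kmo+Ang II.

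The adult heart answers a raised load by enlarging its muscle cells. In rodents this growth is known for the return of genes of the fetal heart, among them skeletal alpha-actin and the natriuretic peptides, which leave the cell as hormones that lower blood volume and pressure. Heart muscle draws most of its energy from fatty acids burnt in mitochondria, and a failing heart is known for losing part of that capacity. Calcium released from the sarcoplasmic reticulum starts each contraction and is pumped back by SERCA2a, the product of Atp2a2, and the series' title concerns the deubiquitinase JOSD2 and this pump.

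A total of 18111 genes had enough counts to be tested. With edgeR, 2409 of them (13.3%) passed an adjusted p of 0.05, 1459 higher (8.06%) and 950 lower (5.25%) in WA than in WC, and these shares are the background for each count below. All 3 WA libraries lay on the same side of all 3 WC libraries for 6283 genes (34.7% of those tested), and for 2401 of the 2409 called genes. The median size of the log2 difference was 0.92 for the genes called higher and 0.91 for those called lower. It exceeded 1 for 589 higher and 393 lower genes, and it exceeded 2 for 66 and 81. The genes called higher were mostly protein-coding (91.5%), as were those called lower (90.5%), against 80.1% of the genes tested. In the text below, levels are normalised counts (CPM, counts relative to the TMM-scaled size of the library) in the order WA_127, WA_130, WA_132, then WC_3, WC_182, WC_184. Differences are on the log2 scale, WA minus WC, with a standard error and an adjusted p from the same edgeR fit, and "called" means an adjusted p under 0.05.

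**Figure D1:**
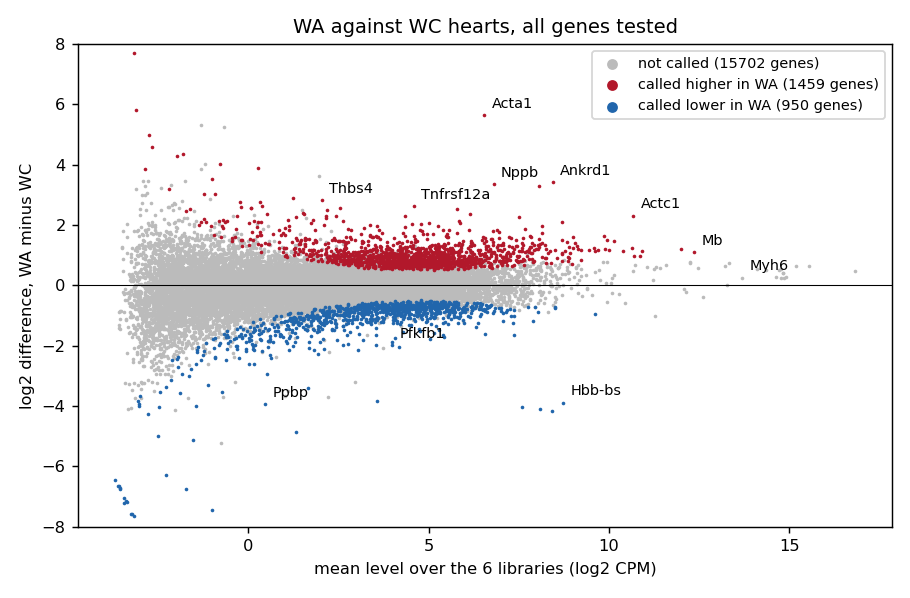
Log2 difference (WA minus WC) against mean level (log2 CPM) for each of the 18111 genes tested, with called genes in red (higher in WA) and blue (lower in WA). Acta1 has the highest difference among labelled genes, at 5.63, and Ppbp the lowest, at -3.94.

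Calls depended on which libraries were fitted. Leaving out 1 library gave from 459 calls (without WC_182) to 2980 (without WA_132), with 524 without WA_127, 1020 without WC_184 and 1270 without WA_130. All 2409 called genes kept the sign of their difference in each of these 6 fits, and 389 (282 higher and 107 lower) kept the call in all 6. The kept sign is no check, since WA and WC did not overlap for 2401 of the 2409. Fitted together with the 3 KKA libraries, 0 of 19091 genes were called by edgeR (3443 had an unadjusted p under 0.05). In that fit the 2409 genes all kept their sign, and 2076 had an unadjusted p under 0.05. The sign there again comes from the same 6 libraries, so it is no check either. With treatment as a covariate 1946 genes were called, 1852 of them among the 2409. When counts were scaled by library size alone, the median difference of all genes moved by -0.31 on the log2 scale, and 232 genes were called. Of these 26.7% were higher in WA, against 60.6% of the 2409. Medians of gene lists are therefore given with a second value where that scaling turned their sign. For some lists a value from another setting that turned the sign is added, but not from every such setting. The median over all genes tested was -0.01.

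On the first principal component of log2 CPM (39.35% of the variance over these 6 libraries) the WA libraries lay at 60.7, 66.1 and 20.7 and the WC libraries at -50.6, -49.6 and -47.2. WA_132, the WA library labelled Ang II, lay nearest to WC. Total counts ranged from 56827533 to 68297638, and every pair of libraries differed by more than counting noise. Mitochondrially encoded genes took 43.4%, 52.6% and 30.3% of the counts in WA and 32.05%, 39.5% and 48.3% in WC, shares that overlapped. Their mean was 42.1% ± 11.2 (SD, n = 3) in WA and 39.9% ± 8.14 in WC, with a two-sided exact permutation p of 0.8. Sorted by treatment label, the same shares did not overlap. Libraries labelled PBS (WA_127, WA_130 and WC_184) had 43.4%, 52.6% and 48.3%. Those labelled Ang II (WA_132, WC_3 and WC_182) had 30.3%, 32.05% and 39.5%. This split of the shares by label was not tested.

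Acta1, Ankrd1, Nppb and Nppa had the highest differences among called hypertrophy genes with a mean of at least 1 log2 CPM. In these 4 genes and in Actc1, the actin of adult heart muscle, every WA library lay above every WC library, although the order within a group differed from gene to gene, so the starts of these 5 genes are shown. Each line holds the 250 bases before and 50 bases after the start of transcription, 5′ to 3′ on the strand of the gene, from RefSeq (build GRCm38.p6). Capitals mark matches, on either strand, to a TATA box (TATAAA), an MCAT element (CATTCC), which TEAD factors are known to bind, and a CArG box, which SRF is known to bind.
Acta1 (chr8:123894726-123895025, minus strand): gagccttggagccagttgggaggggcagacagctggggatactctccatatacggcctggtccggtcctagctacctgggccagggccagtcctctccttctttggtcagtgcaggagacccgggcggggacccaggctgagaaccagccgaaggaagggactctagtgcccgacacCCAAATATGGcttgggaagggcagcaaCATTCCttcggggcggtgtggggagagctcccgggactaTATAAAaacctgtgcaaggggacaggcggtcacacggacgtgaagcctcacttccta
Ankrd1 (chr19:36119795-36120094, minus strand): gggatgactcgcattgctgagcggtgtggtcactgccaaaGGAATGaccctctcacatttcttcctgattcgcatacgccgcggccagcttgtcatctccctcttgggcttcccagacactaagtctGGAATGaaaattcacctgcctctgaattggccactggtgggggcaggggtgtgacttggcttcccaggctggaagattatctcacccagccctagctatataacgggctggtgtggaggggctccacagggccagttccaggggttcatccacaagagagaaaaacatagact
Nppb (chr4:147985650-147985949, plus strand): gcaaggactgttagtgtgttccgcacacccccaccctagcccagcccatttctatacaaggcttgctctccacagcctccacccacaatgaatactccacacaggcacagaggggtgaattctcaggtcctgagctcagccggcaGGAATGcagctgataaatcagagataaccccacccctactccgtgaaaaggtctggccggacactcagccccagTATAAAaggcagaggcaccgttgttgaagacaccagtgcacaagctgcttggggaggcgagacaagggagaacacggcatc
Nppa (chr4:148000472-148000771, plus strand): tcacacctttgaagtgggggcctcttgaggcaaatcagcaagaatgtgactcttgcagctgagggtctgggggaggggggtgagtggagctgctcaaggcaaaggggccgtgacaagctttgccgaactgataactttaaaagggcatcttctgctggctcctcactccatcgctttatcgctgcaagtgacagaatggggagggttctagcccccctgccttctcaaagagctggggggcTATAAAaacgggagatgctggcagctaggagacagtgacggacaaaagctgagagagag
Actc1 (chr2:114052826-114053125, minus strand): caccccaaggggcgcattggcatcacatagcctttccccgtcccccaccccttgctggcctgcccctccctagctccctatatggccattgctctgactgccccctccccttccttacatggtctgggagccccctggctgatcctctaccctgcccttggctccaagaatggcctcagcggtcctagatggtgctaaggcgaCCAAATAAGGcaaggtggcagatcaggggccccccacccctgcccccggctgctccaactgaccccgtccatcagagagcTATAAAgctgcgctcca

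The start of Acta1 held all 3 elements, and that of Actc1 a CArG box and a TATA box. Ankrd1 held 2 MCAT matches, Nppb 1 MCAT match and 1 TATA box, and Nppa 1 TATA box. Counted from the listed start, the TATA matches began at -31 in Nppb, -9 in Nppa, -7 in Acta1 and 33 in Actc1. That of Actc1 thus lay after the listed start. No match shown overlaps another. An MCAT match stood in 7 of the 14 fetal and hypertrophy genes with a single promoter entry and in 7 of 21 sarcomere genes, against 12.15% of the 9679 tested genes with such an entry. It stood in 13.8% of the genes called higher and 11.9% of those called lower. A CArG box stood in 1.32% of tested genes and in 2 of the 14, and a TATA box in 8.08% and in 4 of the 14. Another 5 motifs were searched on both strands. A GATA site, AGATAA, stood in 2 of the 14, Ankrd1 and Nppb, against 6.71% of tested genes. The NFAT core, whose letters are GGAAA, stood in 3 of the 14 against 58.7% of tested genes. The AP-1 and MEF2 sites stood in 1 of the 14 each, against 5.05% and 2.004%. Among the 21 sarcomere genes a MEF2 site stood in 5, a CArG box in 3 and an AP-1 site in 1. The MEF2 site stood in 3.61% of the genes called higher and 2.04% of those called lower. The site of oestrogen-related receptors, which reads AAGGTCA, stood in 0 of the 14 against 3.32%. A match describes letters in this window and is neither a bound site nor a cause, and the absence of a match says nothing of a factor.

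Most of the fetal and hypertrophy genes were called higher in WA. Of 20 members tested, 14 were called higher (70.0%, against 8.06% of all genes) and 0 lower, and the median difference was 1.92. Acta1 (ENSMUSG00000031972), which encodes skeletal alpha-actin, had 678, 695 and 624 CPM in WA against 11.3, 17.4 and 11.4 CPM in WC (log2 difference 5.63 ± 0.27, adjusted p = 3.15e-06). The 3 WA libraries lay within a narrow band, far above every WC library, and WA_127 and WA_130, labelled PBS, exceeded WC_3 and WC_182, labelled Ang II. Ankrd1, a stretch-responsive protein of the sarcomere and nucleus, had 1373, 1347 and 827 CPM in WA against 65.3, 119 and 149 CPM in WC (log2 difference 3.41 ± 0.34, adjusted p = 0.00111). Nppb, the gene of brain natriuretic peptide, had 350.0, 481 and 289 CPM in WA against 35.9, 20.6 and 52.98 CPM in WC (log2 difference 3.35 ± 0.35, adjusted p = 0.00134). Nppa, that of atrial natriuretic peptide, had 1221, 612 and 817 CPM in WA against 108, 48 and 113 CPM in WC (log2 difference 3.30 ± 0.37, adjusted p = 0.00171). In each of these 3 genes the groups stood apart, with the lowest WA value several times the highest WC value. All 4 genes called and named here also passed with each of the 6 libraries left out in turn.

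Genes that respond to stretch and to calcineurin, the calcium-dependent phosphatase of hypertrophic growth, belong to the same list. Enah, an actin-assembly factor of the intercalated disc, had 126.6, 185 and 98.6 CPM in WA against 17.6, 29.4 and 24.2 CPM in WC (log2 difference 2.53 ± 0.27, adjusted p = 0.00134). Nrap, a scaffold of growing myofibrils, had 461, 401 and 311 CPM in WA against 98.9, 114 and 110.0 CPM in WC (log2 difference 1.86 ± 0.21, adjusted p = 0.00161). Rcan1 is a feedback inhibitor of calcineurin that is itself switched on by it. Rcan1 had 53.7, 59.9 and 45.6 CPM in WA against 18.3, 12.3 and 14.6 CPM in WC (log2 difference 1.81 ± 0.19, adjusted p = 0.00134), and its relative Rcan2 had 240.3, 183.7 and 133 CPM in WA against 75.8, 56.9 and 71.9 CPM in WC (log2 difference 1.45 ± 0.24, adjusted p = 0.00488). Xirp2, an actin-binding repeat protein of the intercalated disc, had 565, 768 and 396 CPM in WA against 107, 179.8 and 151 CPM in WC (log2 difference 1.98 ± 0.29, adjusted p = 0.00391). Ankrd2, a stretch-responsive relative of Ankrd1, lay below the level set for ranking and is named after its values were seen. It had 0.226, 0.604 and 0.375 CPM in WA against 0, 0 and 0 CPM in WC (adjusted p = 0.0113), with 0 counts in each WC library. Across the wider list of calcineurin, NFAT and stress kinase genes 6 of 26 members were called higher and 2 lower, with a median of 0.02, or -0.02 with treatment as a covariate and -0.30 with scaling by library size alone. The catalytic and regulatory subunits of calcineurin Ppp3cc (log2 difference 1.10 ± 0.22, adjusted p = 0.00986) and Ppp3r1 (log2 difference 0.83 ± 0.17, adjusted p = 0.0104) were called higher. Of the 8 genes called and named here, 5 also passed with each of the 6 libraries left out in turn, and the call was lost for 2 without WA_127 (adjusted p from 0.0577 to 0.0613) and 3 without WC_182 (adjusted p from 0.0577 to 0.0670). In the calcineurin list the 8 calls became 2 to 5 without WA_127, WC_182 or WA_130 and 1 with scaling by library size alone.

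The myosin heavy chains, by contrast, were not called. Myh7, the slow fetal isoform, had 1569, 1365 and 995 CPM in WA against 592, 869.9 and 854 CPM in WC (log2 difference 0.76 ± 0.26, adjusted p = 0.0769), so the groups did not overlap although the test did not pass. Myh6, the adult isoform, had 16335, 14553 and 13200.0 CPM in WA against 9411, 14560.0 and 12862 CPM in WC (log2 difference 0.26 ± 0.34, adjusted p = 0.659), and the groups overlapped. The calcium release channel Ryr2 had 485, 446 and 358 CPM in WA against 469.7, 487 and 326 CPM in WC (log2 difference 0.01 ± 0.23, adjusted p = 0.989). The difference of Ryr2 was smaller than its standard error, and its direction was not stable.

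**Figure D2:**
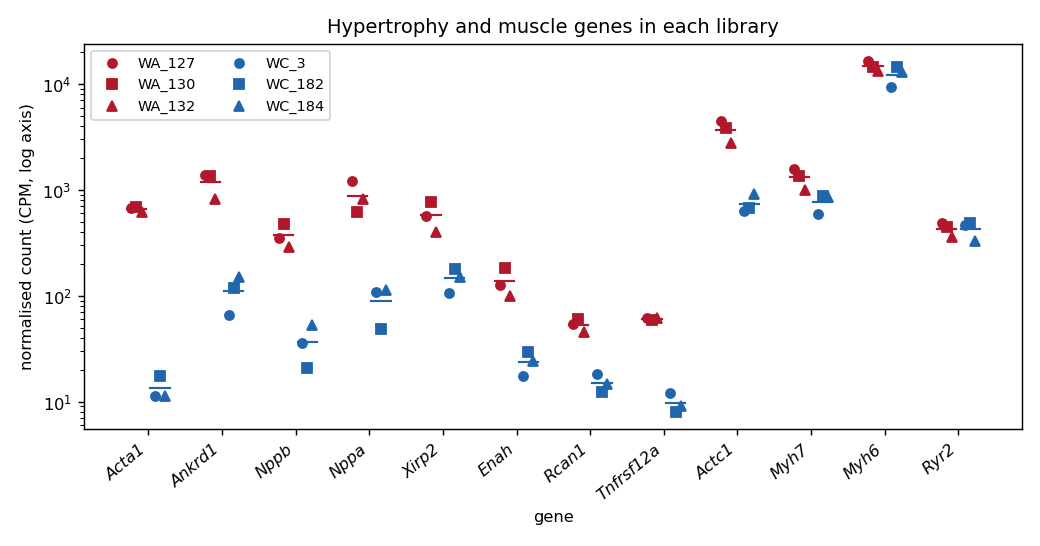
Normalised counts (CPM, log axis) of 12 hypertrophy and muscle genes in each library, WA in red and WC in blue, with a line at the mean of each group. From Acta1 to Myh7 every WA point lies above every WC point, and for Myh6 and Ryr2 the groups overlap.

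Most sarcomere and Z-disc genes were called higher. Of 36 members 21 (58.3%) were called higher and 0 lower, and the median difference was 0.90. All WA libraries lay above all WC libraries for 28 of the 36 members, against 3217 of all 18111 genes tested. Actc1, cardiac alpha-actin, had 4475, 3833 and 2763 CPM in WA against 638, 676 and 915 CPM in WC (log2 difference 2.31 ± 0.30, adjusted p = 0.00242). Acta1 and Actc1 encode nearly the same protein, and how reads shared by such genes were divided is not given in the sources used here. Synpo2l, an actin-bundling protein of the Z-disc, had 175, 205 and 115 CPM in WA against 20.2, 37.7 and 39.2 CPM in WC (log2 difference 2.35 ± 0.29, adjusted p = 0.00233). Lmod2, which lengthens thin filaments, had 317, 279 and 195 CPM in WA against 70.2, 95.2 and 93.8 CPM in WC (log2 difference 1.61 ± 0.23, adjusted p = 0.00387). Myoz2, a Z-disc protein that tethers calcineurin, had 1032, 969 and 714 CPM in WA against 296, 260.1 and 337 CPM in WC (log2 difference 1.6 ± 0.23, adjusted p = 0.00391). Flnc, the muscle filamin, had 181, 189 and 161 CPM in WA against 76.3, 79.1 and 52.7 CPM in WC (log2 difference 1.35 ± 0.20, adjusted p = 0.00405). The small muscle protein Smpx (log2 difference 1.18 ± 0.19, adjusted p = 0.00465) and the troponin C gene Tnnc1 (log2 difference 1.14 ± 0.23, adjusted p = 0.0110) were also called higher. Of the 7 genes called and named here, 6 also passed with each of the 6 libraries left out in turn, and the call was lost for 1 without WA_127 (adjusted p = 0.0506) and 1 without WC_182 (adjusted p = 0.0657). In the sarcomere list the 21 calls became 8 to 10 without WC_182 or WA_127 and 2 with scaling by library size alone.

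Among the most abundant called genes, several others serve contraction. Tpm1, alpha-tropomyosin, had 6815, 6263 and 5727 CPM in WA against 2573, 2433 and 3155 CPM in WC (log2 difference 1.2 ± 0.28, adjusted p = 0.0191). Myl3, the ventricular essential light chain, had 2739, 1896 and 2960.5 CPM in WA against 1469, 868 and 858 CPM in WC (log2 difference 1.25 ± 0.31, adjusted p = 0.0219). Des, the intermediate filament of muscle, had 2278, 1963 and 1479.8 CPM in WA against 711, 591 and 774 CPM in WC (log2 difference 1.46 ± 0.26, adjusted p = 0.00637). Mb, the oxygen-binding protein of muscle, had 9917, 6271 and 7217 CPM in WA against 4126, 2947 and 3826 CPM in WC (log2 difference 1.10 ± 0.32, adjusted p = 0.0419). In all 4 genes each WA value exceeded each WC value. Of 26 skeletal muscle genes 14 were tested and 4 were called higher. Beside Acta1 these were Myl1 (72.5, 95.5 and 38.8 CPM in WA against 16.6, 13.5 and 19.4 CPM in WC, log2 difference 2.06 ± 0.30, adjusted p = 0.00418), Mybpc2 (log2 difference 2.12 ± 0.34, adjusted p = 0.00530) and Ckm, muscle creatine kinase (log2 difference 1.40 ± 0.24, adjusted p = 0.00530). The myosin heavy chains of fast skeletal fibres were at or near 0, with Myh1 at 0 counts in all 6 libraries and Myh4 at no more than 0.0501 CPM. Tnnt3, fast troponin T, had 0.226, 0.846 and 0.626 CPM in WA and 0.708, 0.505 and 1.64 CPM in WC, and Mylpf, the fast regulatory light chain, had 0.868, 0.411 and 1.15 CPM in WA and 0.932, 1.011 and 0.916 CPM in WC, and neither was called. With each of the 6 libraries left out in turn, 3 of the 7 genes called and named here also passed, and the call was lost for 3 without WA_127 (adjusted p from 0.0862 to 0.169), 2 without WA_130 (adjusted p from 0.0596 to 0.0698), 1 without WC_3 (adjusted p = 0.0519), 4 without WC_182 (adjusted p from 0.0508 to 0.167) and 3 without WC_184 (adjusted p from 0.0565 to 0.115).

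Calcium handling genes changed in part. Of 32 members 31 were tested, 8 were called higher and 1 lower, and the median was 0.20, or -0.15 with scaling by library size alone. Casq2, which stores calcium in the sarcoplasmic reticulum, had 562, 444 and 365 CPM in WA against 166, 150.0 and 158 CPM in WC (log2 difference 1.53 ± 0.22, adjusted p = 0.00376). Slc8a1, the sodium-calcium exchanger of the surface membrane, had 182.3, 155 and 119 CPM in WA against 52.7, 65.0 and 53.8 CPM in WC (log2 difference 1.41 ± 0.20, adjusted p = 0.00391). Asph, whose locus also encodes the release-channel partner junctin, had 129, 133 and 126 CPM in WA against 59.4, 69.5 and 70.8 CPM in WC (log2 difference 0.96 ± 0.17, adjusted p = 0.00633). Atp2a2, the SERCA2a gene, had 3629.9, 2529 and 2599.6 CPM in WA against 1702, 1099 and 1216 CPM in WC (log2 difference 1.12 ± 0.29, adjusted p = 0.0257). Its inhibitor Pln had 3234, 2732 and 1916 CPM in WA against 1396, 1199.5 and 1409.7 CPM in WC (log2 difference 0.98 ± 0.27, adjusted p = 0.0385). The pore subunit of the L-type calcium channel, Cacna1c, went the other way, with 183.7, 204 and 193 CPM in WA against 327, 431 and 313 CPM in WC (log2 difference -0.88 ± 0.20, adjusted p = 0.0174). Caveolin-3 (Cav3) was also called higher (log2 difference 1.15 ± 0.25, adjusted p = 0.0136). With each of the 6 libraries left out in turn, 3 of the 7 genes called and named here also passed, and the call was lost for 4 without WA_127 (adjusted p from 0.0719 to 0.154), 3 without WA_130 (adjusted p from 0.0575 to 0.108), 1 without WC_3 (adjusted p = 0.0578), 4 without WC_182 (adjusted p from 0.0683 to 0.148) and 3 without WC_184 (adjusted p from 0.0609 to 0.110). In the calcium handling list the 9 calls became 3 to 5 without WA_127, WC_182, WA_130 or WC_184 and 0 with scaling by library size alone.

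Potassium channel genes split, with 3 of 25 called higher, 4 lower and a median of 0.09, or -0.16 with scaling by library size alone. The pair that forms the slow delayed rectifier rose. Kcnq1, its pore, had 18.9, 17.99 and 11.95 CPM in WA against 6.35, 6.44 and 8.84 CPM in WC (log2 difference 1.18 ± 0.22, adjusted p = 0.00858). Kcne1, its accessory subunit, had 2.59, 4.11 and 2.98 CPM in WA against 0.779, 0.416 and 0.687 CPM in WC (log2 difference 2.35 ± 0.36, adjusted p = 0.00407). Kcnd3, a pore of the transient outward current, fell, with 9.89, 9.77 and 12.2 CPM in WA against 23.3, 30.7 and 21.5 CPM in WC (log2 difference -1.25 ± 0.19, adjusted p = 0.00407). Kcnh2, the pore of the rapid delayed rectifier, had 44.7, 33.8 and 40.2 CPM in WA against 69.3, 75.6 and 58.1 CPM in WC (log2 difference -0.77 ± 0.18, adjusted p = 0.0173). Kcnt1, a sodium-activated channel, had 2.12, 2.37 and 3.004 CPM in WA against 8.26, 6.29 and 5.81 CPM in WC (log2 difference -1.44 ± 0.25, adjusted p = 0.00564), and the silent subunit Kcnv2 also fell (log2 difference -1.22 ± 0.24, adjusted p = 0.00994). The other genes of the transient outward current looked at, Kcnd2 (log2 difference 0.47 ± 0.25, adjusted p = 0.240) and Kcnip2 (log2 difference -0.14 ± 0.19, adjusted p = 0.681), were not called. Of the 6 genes called and named here, 3 also passed with each of the 6 libraries left out in turn, and the call was lost for 3 without WA_127 (adjusted p from 0.0531 to 0.0599), 1 without WA_130 (adjusted p = 0.0801) and 3 without WC_182 (adjusted p from 0.0649 to 0.0868). In the potassium channel list the 7 calls became 3 without WA_127 or WC_182 and 3 with scaling by library size alone.

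Of 22 sodium channel, connexin and pacemaker genes 5 were called higher and 0 lower. Of the sodium-potassium pump, the beta subunit Atp1b1 had 147, 123 and 96.3 CPM in WA against 54, 38.8 and 45.95 CPM in WC (log2 difference 1.40 ± 0.21, adjusted p = 0.00395). Hcn2, a pacemaker channel, had 14.8, 12.8 and 10.4 CPM in WA against 6.68, 6.12 and 7.26 CPM in WC (log2 difference 0.92 ± 0.19, adjusted p = 0.0125). Among cardiac transcription factors 4 of 24 were called higher and 1 lower, with a median of 0.01, or -0.09 with treatment as a covariate, -0.35 with scaling by library size alone and 0.00 with DESeq2 size factors. Tbx20, a T-box factor of the heart, had 54.9, 45.3 and 29.2 CPM in WA against 14.9, 14.5 and 17.2 CPM in WC (log2 difference 1.47 ± 0.22, adjusted p = 0.00405). Hopx, a homeodomain cofactor, had 78.4, 55.5 and 69.0 CPM in WA against 27.5, 23.7 and 33.99 CPM in WC (log2 difference 1.25 ± 0.20, adjusted p = 0.00433). Srf, the factor that binds CArG boxes, had 42.1, 31.2 and 22.6 CPM in WA against 15.4, 18.5 and 16.1 CPM in WC (log2 difference 0.94 ± 0.22, adjusted p = 0.0181). Hey2, a Notch effector of ventricular muscle, had 3.90, 4.26 and 3.32 CPM in WA against 8.07, 6.50 and 6.24 CPM in WC (log2 difference -0.86 ± 0.22, adjusted p = 0.0253). Of the beta-adrenergic and guanylate cyclase genes 3 of 24 were called higher and 1 lower. The lower gene was Pde4d, a phosphodiesterase that breaks down cyclic AMP, with 6.37, 3.38 and 4.99 CPM in WA against 20.02, 13.96 and 18.1 CPM in WC (log2 difference -1.82 ± 0.25, adjusted p = 0.00296). Of the 7 genes called and named here, 4 also passed with each of the 6 libraries left out in turn, and the call was lost for 3 without WA_127 (adjusted p from 0.0719 to 0.0901), 2 without WA_130 (adjusted p from 0.0513 to 0.0522), 1 without WA_132 (adjusted p = 0.0538), 1 without WC_3 (adjusted p = 0.0703), 3 without WC_182 (adjusted p from 0.0694 to 0.0853) and 2 without WC_184 (adjusted p from 0.0588 to 0.0712). In the sodium channel list the 5 calls became 1 to 3 without WA_127, WC_182 or WC_184, 0 with scaling by library size alone and 8 by DESeq2. In the transcription factor list the 5 calls became 2 to 3 without WA_127, WA_130, WC_182, WC_184 or WC_3, 8 without WA_132 and 0 with scaling by library size alone. In the beta-adrenergic list the 4 calls became 1 to 2 without WA_127, WC_182, WC_184 or WA_130, 7 without WA_132, 1 with scaling by library size alone and 8 by DESeq2.

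Stress and growth signals at the cell surface included the gene with the second smallest p of all. Tnfrsf12a, the receptor of the cytokine TWEAK, had 61, 59.3 and 61.2 CPM in WA against 12, 8.06 and 9.11 CPM in WC (log2 difference 2.64 ± 0.19, adjusted p = 0.000117). Its 3 WA values lay close together, and no WC value came near them. Edn3, an endothelin ligand, had 11.3, 3.67 and 5.46 CPM in WA against 0.755, 0.758 and 1.25 CPM in WC (log2 difference 2.90 ± 0.42, adjusted p = 0.00395). Edn1, the main vasoconstrictor of the family, had 2.15, 2.83 and 3.94 CPM in WA against 8.46, 5.20 and 6.73 CPM in WC (log2 difference -1.19 ± 0.28, adjusted p = 0.0191). The receptor Ednrb had 25.7, 27.8 and 25.8 CPM in WA against 14.7, 20.2 and 15.6 CPM in WC (log2 difference 0.65 ± 0.17, adjusted p = 0.0310). The endothelin and vasoactive list held 3 higher and 3 lower among 20 tested members. Of 29 immediate-early genes 5 were called higher and 0 lower, with a median of 0.25, or -0.07 with scaling by library size alone. Nr4a3, an orphan nuclear receptor, had 6.75, 3.94 and 5.62 CPM in WA against 0.932, 1.26 and 1.198 CPM in WC (log2 difference 2.27 ± 0.29, adjusted p = 0.00242). Atf3, a stress-induced factor, had 9.63, 17.9 and 14.3 CPM in WA against 5.14, 2.71 and 3.74 CPM in WC (log2 difference 1.85 ± 0.28, adjusted p = 0.00418). Of the 6 genes called and named here, 4 also passed with each of the 6 libraries left out in turn, and the call was lost for 2 without WA_127 (adjusted p from 0.0931 to 0.0955), 2 without WA_130 (adjusted p from 0.0660 to 0.0947), 2 without WC_3 (adjusted p from 0.0523 to 0.0632), 2 without WC_182 (adjusted p from 0.0518 to 0.0530) and 2 without WC_184 (adjusted p from 0.0616 to 0.115). In the immediate-early list the 5 calls became 3 without WA_127, WA_130 or WC_182 and 1 with scaling by library size alone. In the endothelin list the 6 calls became 1 to 3 without WA_127, WC_182, WA_130, WC_184 or WC_3 and 1 with scaling by library size alone.

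Lists of 4 other families of ligands and receptors had 0% to 13.3% of members called higher and 6.38% to 9.30% lower. These shares lie near the 8.06% and 5.25% of all genes and are not read as a trait of the families. In the TGF-beta, activin and BMP list 2 of 43 tested members were called higher and 4 lower. Bambi, a decoy receptor of the family, had 13.2, 13.03 and 12.8 CPM in WA against 4.64, 4.07 and 5.004 CPM in WC (log2 difference 1.51 ± 0.18, adjusted p = 0.00200). Bmp4, Bmp6 and Smad3 were lower (log2 differences -0.92 ± 0.21, -0.80 ± 0.17 and -0.84 ± 0.17). Tgfb2, a ligand, was not called (log2 difference 0.89 ± 0.32, adjusted p = 0.0933). In the Wnt and Notch list 0 were called higher and 3 lower of 34, led by Tcf7l2, a transcription factor of the pathway (8.21, 5.78 and 8.15 CPM in WA against 16.1, 15.1 and 16.7 CPM in WC, log2 difference -1.11 ± 0.19, adjusted p = 0.00564). Among growth factors and receptors 2 of 47 were called higher and 3 lower. Hbegf, a ligand of the epidermal growth factor receptor, had 12.9, 17.8 and 14.5 CPM in WA against 8.12, 5.50 and 6.80 CPM in WC (log2 difference 1.15 ± 0.21, adjusted p = 0.00706). In the renin-angiotensin list 2 of 15 tested members were called higher and 1 lower. Mas1, the receptor of angiotensin 1-7, had 1.08, 1.86 and 1.16 CPM in WA against 2.23, 3.82 and 4.05 CPM in WC (log2 difference -1.31 ± 0.34, adjusted p = 0.0285). Agtr1a, the main angiotensin II receptor of rodents, had 20.4, 17.8 and 10.2 CPM in WA against 0.861, 20.2 and 22.1 CPM in WC (log2 difference 0.17 ± 1.16, adjusted p = 0.941), with 1 WC library far below the other 5. With each of the 6 libraries left out in turn, 2 of the 7 genes called and named here also passed, and the call was lost for 2 without WA_127 (adjusted p from 0.0811 to 0.128), 1 without WA_130 (adjusted p = 0.0569), 1 without WA_132 (adjusted p = 0.0630), 5 without WC_182 (adjusted p from 0.0559 to 0.134) and 3 without WC_184 (adjusted p from 0.0623 to 0.112). In the TGF-beta list the 6 calls became 1 to 3 without WC_182, WC_184, WA_127 or WA_130, 0 with scaling by library size alone and 10 by DESeq2. In the Wnt and Notch list the 3 calls became 1 without WA_130, WC_182 or WC_184, 0 with scaling by library size alone and 5 by DESeq2. In the growth factor list the 5 calls became 2 to 3 without WA_127, WC_182, WC_184 or WA_130, 1 with scaling by library size alone, 3 with treatment as a covariate and 10 by DESeq2. In the renin-angiotensin list the 3 calls became 0 to 1 without WA_127, WC_182 or WC_184 and 0 with scaling by library size alone.

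Part of the matrix genes were called higher, more among matricellular proteins than among collagens by count. Of 61 matricellular and matrix genes tested 13 were called higher and 2 lower (median 0.36), and of 33 collagens tested 4 and 2 (median -0.03). The difference between these lists was not tested. Thbs4, a thrombospondin of stressed heart and tendon, had 11.2, 14.6 and 7.58 CPM in WA against 1.76, 1.28 and 1.66 CPM in WC (log2 difference 2.82 ± 0.28, adjusted p = 0.000982). Ccn2, connective tissue growth factor, had 67.8, 106 and 66.8 CPM in WA against 27.4, 19.96 and 20.5 CPM in WC (log2 difference 1.83 ± 0.22, adjusted p = 0.00222). Cilp had 15.3, 21.3 and 26.7 CPM in WA against 6.77, 3.81 and 5.23 CPM in WC (log2 difference 2.0 ± 0.26, adjusted p = 0.00242). Ltbp2, a latent TGF-beta binding protein, had 7.57, 8.37 and 4.22 CPM in WA against 0.944, 1.10 and 1.74 CPM in WC (log2 difference 2.41 ± 0.34, adjusted p = 0.00336). Postn, periostin, had 38.1, 80.6 and 44.04 CPM in WA against 10.6, 12.98 and 21.99 CPM in WC (log2 difference 1.84 ± 0.35, adjusted p = 0.0139). WA_130 held the highest value of Postn, Thbs4, Ccn2 and Ltbp2. Col8a1, a short-chain collagen, had 12.2, 13.7 and 11.2 CPM in WA against 3.76, 3.85 and 4.598 CPM in WC (log2 difference 1.6 ± 0.19, adjusted p = 0.00200). Col3a1, a fibrillar collagen, had 65.6, 112 and 121 CPM in WA against 47.2, 49.95 and 59.5 CPM in WC (log2 difference 0.93 ± 0.23, adjusted p = 0.0234). Col1a1 was not called (log2 difference 0.72 ± 0.32, adjusted p = 0.163). Col5a3 (log2 difference -0.96 ± 0.19, adjusted p = 0.0110) and Col6a6 (log2 difference -1.21 ± 0.26, adjusted p = 0.0130) were lower. Of the 9 genes called and named here, 5 also passed with each of the 6 libraries left out in turn, and the call was lost for 2 without WA_127 (adjusted p from 0.0636 to 0.0700), 1 without WA_130 (adjusted p = 0.0848), 4 without WC_182 (adjusted p from 0.0582 to 0.113) and 1 without WC_184 (adjusted p = 0.0580). In the matricellular list the 15 calls became 6 to 7 without WC_182 or WA_130, 6 with scaling by library size alone and 23 by DESeq2. In the collagen list the 6 calls became 1 to 3 without WC_182, WA_127 or WA_130, 0 with scaling by library size alone and 10 by DESeq2.

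Enzymes that cut matrix, and their inhibitors, gave 4 higher and 2 lower calls among 36 tested members. These shares, 11.1% and 5.56%, lie near the 8.06% and 5.25% of all genes and are not read as a trait of the list. Timp1, a metalloproteinase inhibitor, had 5.48, 5.88 and 2.34 CPM in WA against 1.43, 1.65 and 1.92 CPM in WC (log2 difference 1.45 ± 0.35, adjusted p = 0.0208). Adamtsl2, a secreted fibrillin-binding protein, had 11.02, 21.98 and 26.5 CPM in WA against 5.40, 7.15 and 6.89 CPM in WC (log2 difference 1.61 ± 0.29, adjusted p = 0.00681). Itga9, an integrin subunit that binds tenascin and osteopontin, had 27.7, 23.4 and 19.8 CPM in WA against 6.26, 7.80 and 7.42 CPM in WC (log2 difference 1.72 ± 0.19, adjusted p = 0.00134). Its list of integrin and focal adhesion genes had 3 higher and 3 lower calls of 37 (8.11% each, also near the shares of all genes). Of 24 tested fibroblast markers 4 were called higher and 0 lower. Their median was 0.00, or -0.02 with treatment as a covariate, -0.28 with scaling by library size alone and -0.01 with DESeq2 size factors. The summed level of the list was 1784 to 1942 CPM in WA and 1529 to 1991 CPM in WC. The defining fibroblast gene Pdgfra had a log2 difference of -0.17 ± 0.16 and was not called. The part of these markers in the matrix differences was not tested. In whole tissue, fewer cells of a type and less RNA per cell cannot be told apart. Of the 3 genes called and named here, 2 also passed with each of the 6 libraries left out in turn, and the call was lost for 1 without WA_127 (adjusted p = 0.107), 1 without WA_130 (adjusted p = 0.0816), 1 without WC_182 (adjusted p = 0.0990) and 1 without WC_184 (adjusted p = 0.0565). In the metalloproteinase list the 6 calls became 1 to 3 without WC_182, WA_127 or WA_130, 10 without WA_132 and 2 with scaling by library size alone. In the integrin list the 6 calls became 1 without WA_127, WA_130, WC_182 or WC_184, 0 with scaling by library size alone and 10 by DESeq2. In the fibroblast list the 4 calls became 0 to 2 without WA_130, WC_182, WA_127 or WC_3 and 0 with scaling by library size alone.

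**Figure D3:**
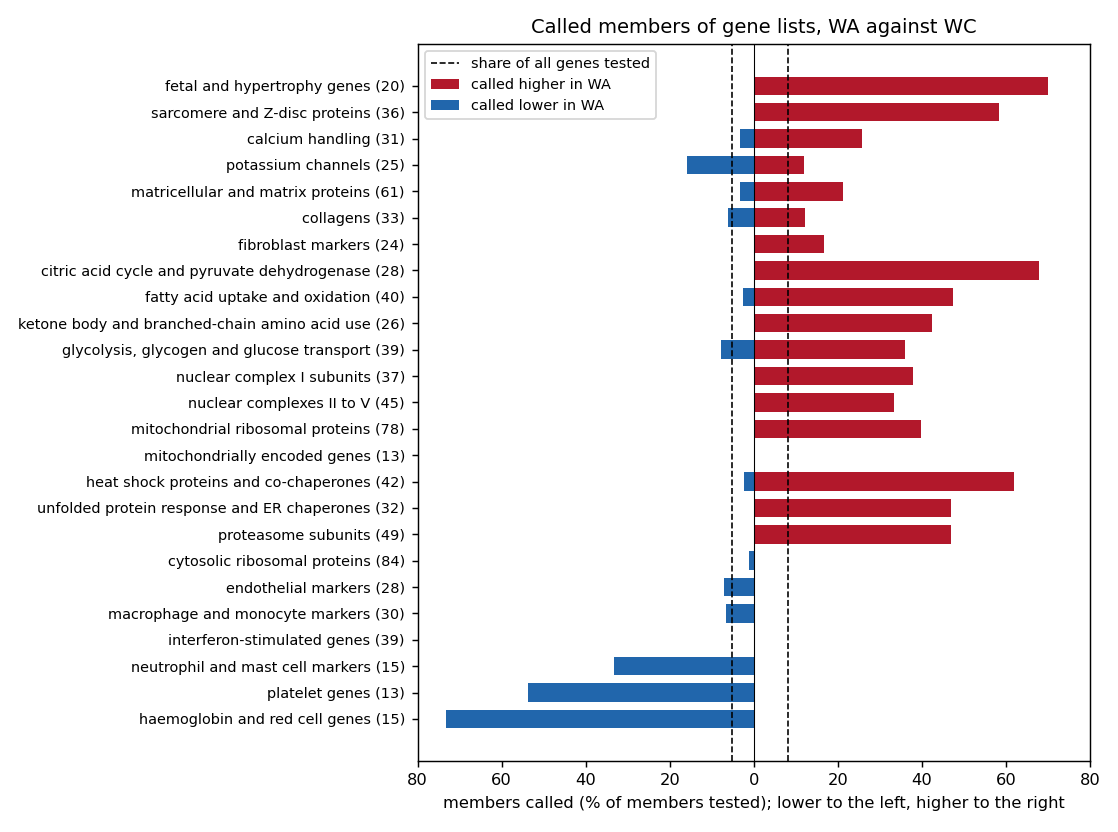
Share of tested members called higher (red, to the right) or lower (blue, to the left) in WA for 25 gene lists, with the number tested in brackets. Dashed lines mark the share of all 18111 genes, 8.06% higher and 5.25% lower. Most muscle, energy and protein-quality lists reach to the right, and blood cell lists to the left. Potassium channels reach both ways (12% higher and 16% lower). Mitochondrially encoded genes have no bar, and cytosolic ribosomal proteins have only 1.19% lower.

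Many nuclear genes of energy metabolism were called higher. In the citric acid cycle and pyruvate dehydrogenase list 19 of 28 genes (67.9%) were called higher and 0 lower, all 28 differences were positive and the median was 0.97. Mdh1, cytosolic malate dehydrogenase, had 860.0, 601 and 656 CPM in WA against 279, 217 and 252 CPM in WC (log2 difference 1.5 ± 0.23, adjusted p = 0.00405). Sucla2, a subunit of succinyl-CoA synthetase, had 274, 217 and 164 CPM in WA against 89.2, 60.8 and 71.7 CPM in WC (log2 difference 1.56 ± 0.24, adjusted p = 0.00405). Dlat, the E2 core of pyruvate dehydrogenase, had 188, 167 and 123 CPM in WA against 70.1, 54.8 and 68.4 CPM in WC (log2 difference 1.31 ± 0.21, adjusted p = 0.00456). Fh1, fumarase, Idh3b, a subunit of isocitrate dehydrogenase, and Pdha1, the E1 subunit of pyruvate dehydrogenase, differed by 1.15 ± 0.18, 1.28 ± 0.22 and 1.34 ± 0.23. All 6 had every WA library above every WC library. All 6 genes called and named here also passed with each of the 6 libraries left out in turn. In the citric acid cycle list the 19 calls became 7 to 11 without WC_182, WA_127 or WC_184 and 0 with scaling by library size alone.

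Fatty acid use followed with 19 of 40 members called higher, 1 lower and a median of 0.74. Fabp3, the fatty acid carrier of heart muscle, had 1781, 1454 and 1753 CPM in WA against 675, 459.6 and 619.6 CPM in WC (log2 difference 1.51 ± 0.25, adjusted p = 0.00495). Acads, the short-chain acyl-CoA dehydrogenase, had 91.7, 69.7 and 64.9 CPM in WA against 28.6, 27.1 and 29.4 CPM in WC (log2 difference 1.41 ± 0.18, adjusted p = 0.00233). Etfa, which passes its electrons on, had 215, 138 and 146 CPM in WA against 74.2, 44.9 and 50.5 CPM in WC (log2 difference 1.56 ± 0.25, adjusted p = 0.00455). Hadhb, a subunit of the trifunctional protein, had 615, 409 and 382 CPM in WA against 205, 149 and 172 CPM in WC (log2 difference 1.42 ± 0.24, adjusted p = 0.00556). Of genes that PPAR factors switch on in fasting 5 of 23 tested members were called higher and 2 lower, with a median of -0.10. Pdk4, the kinase that shuts off pyruvate dehydrogenase, had 107, 83.7 and 137 CPM in WA against 49.7, 33.6 and 14.4 CPM in WC (log2 difference 1.74 ± 0.42, adjusted p = 0.0345). Mgll, a lipase, had 112, 106 and 157 CPM in WA against 257, 200.3 and 206 CPM in WC (log2 difference -0.83 ± 0.21, adjusted p = 0.0275). The coactivator Ppargc1a, which drives mitochondrial genes, had 45.95, 44.9 and 27.2 CPM in WA against 20.8, 26.1 and 17.6 CPM in WC (log2 difference 0.87 ± 0.23, adjusted p = 0.0275). Of the 7 genes called and named here, 4 also passed with each of the 6 libraries left out in turn, and the call was lost for 3 without WA_127 (adjusted p from 0.115 to 0.130), 2 without WA_130 (adjusted p from 0.0975 to 0.119), 1 without WA_132 (adjusted p = 0.102), 2 without WC_3 (adjusted p from 0.0503 to 0.0602), 3 without WC_182 (adjusted p from 0.0664 to 0.114) and 2 without WC_184 (adjusted p from 0.0742 to 0.112). In the fatty acid list the 20 calls became 4 to 11 without WC_182, WA_127 or WC_184 and 0 with scaling by library size alone. In the fasting list the 7 calls became 1 to 4 without WA_127, WC_182, WC_184, WA_130 or WC_3 and 0 with scaling by library size alone.

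Ketone bodies and branched-chain amino acids are minor fuels of heart muscle. Of 26 genes 11 were called higher and 0 lower (median 0.53). Bdh1, the first enzyme of ketone oxidation, had 130.1, 74.9 and 68.5 CPM in WA against 26.3, 23.99 and 26.2 CPM in WC (log2 difference 1.84 ± 0.24, adjusted p = 0.00243). Oxct1, its second, had 532, 397 and 411 CPM in WA against 212, 124 and 179 CPM in WC (log2 difference 1.38 ± 0.24, adjusted p = 0.00633). Hibch, of valine breakdown, had 43.7, 38.4 and 30.5 CPM in WA against 17.4, 13.2 and 14.2 CPM in WC (log2 difference 1.33 ± 0.19, adjusted p = 0.00376). Glucose genes were mixed, with 14 of 39 higher, 3 lower and a median of 0.49. Slc16a1, a lactate transporter, had 99.3, 70.5 and 74.1 CPM in WA against 27.9, 21.1 and 31.3 CPM in WC (log2 difference 1.6 ± 0.21, adjusted p = 0.00242). Ugp2, which makes UDP-glucose for glycogen, had 144, 109 and 105 CPM in WA against 49.2, 36.1 and 50.1 CPM in WC (log2 difference 1.40 ± 0.20, adjusted p = 0.00391). Gbe1, the glycogen branching enzyme, had 20.5, 14.3 and 10.7 CPM in WA against 4.68, 5.81 and 5.94 CPM in WC (log2 difference 1.47 ± 0.24, adjusted p = 0.00517). A pair of regulators was among the 15 largest falls of genes with a mean of at least 1 log2 CPM. Pfkfb1, which sets the level of the glycolytic signal fructose 2,6-bisphosphate, had 9.84, 7.40 and 7.16 CPM in WA against 31.4, 39.9 and 24.9 CPM in WC (log2 difference -1.98 ± 0.22, adjusted p = 0.00134). Phkg1, the catalytic subunit of muscle phosphorylase kinase, had 5.76, 9.31 and 12 CPM in WA against 43.4, 39.5 and 29.8 CPM in WC (log2 difference -2.06 ± 0.26, adjusted p = 0.00233). All 8 genes called and named here also passed with each of the 6 libraries left out in turn. In the ketone body list the 11 calls became 4 to 6 without WC_182, WA_127 or WC_184 and 1 with scaling by library size alone. In the glucose list the 17 calls became 5 to 10 without WC_182, WA_127, WC_184 or WA_130 and 2 with scaling by library size alone.

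Fewer than 1 in 2 of the nuclear subunits of the respiratory chain were called higher. Complex I had 14 of 37 subunits called higher and 0 lower, 36 positive differences and a median of 0.61. Complexes II to V had 15 of 45 higher and 0 lower, with all 45 differences positive and a median of 0.54. Ndufa10 of complex I had 425, 369 and 294 CPM in WA against 165, 135 and 186.5 CPM in WC (log2 difference 1.16 ± 0.22, adjusted p = 0.00811). Uqcrc2 of complex III had 494, 373 and 309 CPM in WA against 164, 128 and 178 CPM in WC (log2 difference 1.32 ± 0.23, adjusted p = 0.00638). Sdha, the catalytic subunit of complex II, had 535, 401 and 327 CPM in WA against 210.0, 140.1 and 154 CPM in WC (log2 difference 1.32 ± 0.25, adjusted p = 0.00784). Atp5a1 and Atp5b, which form the catalytic head of ATP synthase, were among the most abundant called genes, with differences of 1.21 ± 0.30 and 0.99 ± 0.27. Proteins of the mitochondrial ribosome, which translate the mitochondrial genome, had 31 of 78 called higher and 0 lower, 77 positive differences and a median of 0.59. Mrpl53 had the highest difference among them, with 15.2, 10.8 and 18.8 CPM in WA against 4.09, 1.37 and 2.13 CPM in WC (log2 difference 2.55 ± 0.38, adjusted p = 0.00512). Of the 6 genes called and named here, 2 also passed with each of the 6 libraries left out in turn, and the call was lost for 2 without WA_127 (adjusted p from 0.106 to 0.146), 1 without WA_130 (adjusted p = 0.0846), 4 without WC_182 (adjusted p from 0.0573 to 0.139) and 2 without WC_184 (adjusted p from 0.103 to 0.128). In the complex I list the 14 calls became 1 to 6 without WC_182, WA_127, WC_184 or WA_130, 0 with scaling by library size alone and 22 by DESeq2. In the list of complexes II to V the 15 calls became 2 to 7 without WC_182, WA_127 or WC_184, 0 with scaling by library size alone and 24 by DESeq2. In the mitochondrial ribosome list the 31 calls became 1 to 13 without WC_182, WA_127 or WC_184 and 1 with scaling by library size alone.

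The 13 protein genes of the mitochondrial genome gave 0 calls in either direction by edgeR, 0 had an unadjusted p under 0.05, and DESeq2 and limma-voom called 0. Their median was 0.54, or -0.08 with treatment as a covariate and all 13 overlapped between the groups. The one with the smallest p, mt-Nd6, had 12774, 21546 and 5399.7 CPM in WA against 4931, 7449.8 and 12936 CPM in WC (log2 difference 0.65 ± 0.51, adjusted p = 0.432). WA_130 held the highest value and WC_3 the lowest, as they did among the levels of the whole list. Energy transfer from mitochondria to the sarcomere gave 10 of 19 tested members higher and 0 lower. Ckmt2, mitochondrial creatine kinase, had 1833, 1345 and 1476 CPM in WA against 911, 519 and 633 CPM in WC (log2 difference 1.17 ± 0.27, adjusted p = 0.0179). Prkaa2, the muscle catalytic subunit of the energy sensor AMPK, had 60.0, 42.9 and 28.3 CPM in WA against 12.6, 14.7 and 14.8 CPM in WC (log2 difference 1.64 ± 0.24, adjusted p = 0.00395). Antioxidant enzymes gave 9 of 39 higher and 1 lower calls, with a median of 0.25, or -0.06 with scaling by library size alone. In the mitochondrial matrix, the peroxiredoxin Prdx3 had 119, 74.8 and 58.4 CPM in WA against 30.5, 19.7 and 26.99 CPM in WC (log2 difference 1.71 ± 0.27, adjusted p = 0.00440). The superoxide dismutase Sod2 had 272, 226 and 220.0 CPM in WA against 125, 96.0 and 118 CPM in WC (log2 difference 1.09 ± 0.19, adjusted p = 0.00678). Of the 4 genes called and named here, 3 also passed with each of the 6 libraries left out in turn, and the call was lost for 1 without WA_127 (adjusted p = 0.0874), 1 without WC_182 (adjusted p = 0.0950) and 1 without WC_184 (adjusted p = 0.0826). In the creatine kinase list the 10 calls became 2 to 6 without WC_182, WA_127, WC_184 or WA_130 and 0 with scaling by library size alone. In the antioxidant list the 10 calls became 2 to 6 without WA_127, WC_182 or WC_184 and 0 with scaling by library size alone.

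**Figure D4:**
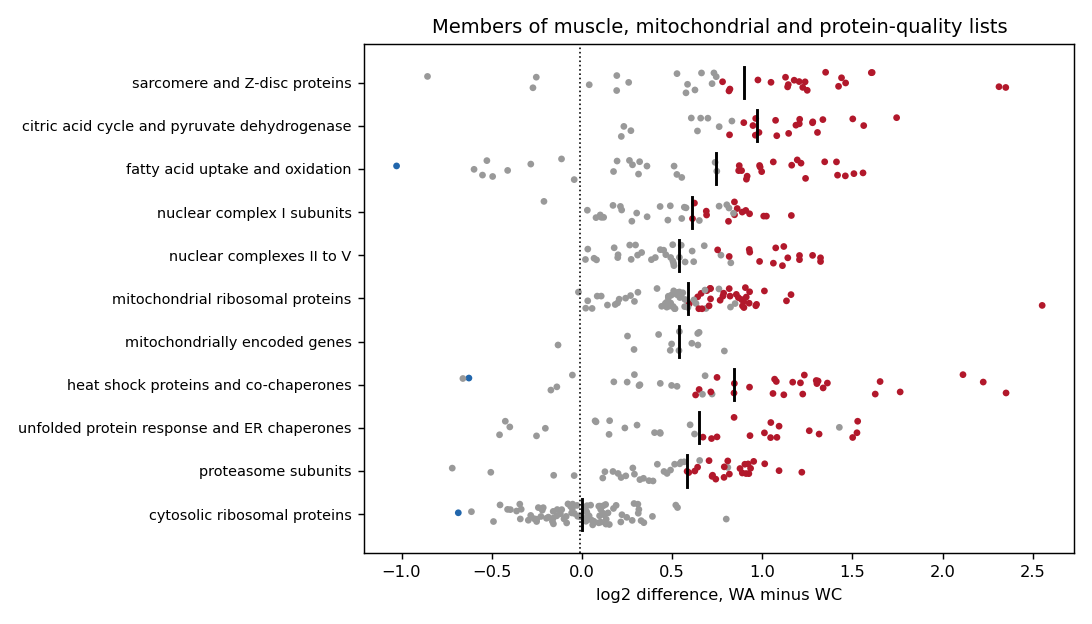
Log2 difference (WA minus WC) of each tested member of 11 gene lists, with members called higher in red, called lower in blue and not called in grey. Thick lines mark each list's median, from 0.00 for cytosolic ribosomal proteins to 0.97 for the citric acid cycle list, and the dotted line marks the median of all genes.

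Most heat shock genes were called higher, as were part of the genes of the endoplasmic reticulum and the proteasome. Of 42 heat shock proteins and co-chaperones 26 (61.9%) were called higher and 1 lower, with a median of 0.84. Hsph1, a nucleotide exchange factor of HSP70, had 32.8, 31.8 and 42.9 CPM in WA against 10.8, 11.6 and 12.5 CPM in WC (log2 difference 1.63 ± 0.18, adjusted p = 0.00134). Hspb1, the small heat shock protein HSP27, had 179, 193 and 325 CPM in WA against 62.4, 67.8 and 74.9 CPM in WC (log2 difference 1.76 ± 0.25, adjusted p = 0.00336). A pair of co-chaperones of the DnaJ family were among the called genes. Dnajb4 had 60.1, 64.9 and 60.1 CPM in WA against 27.4, 20.1 and 24.5 CPM in WC (log2 difference 1.36 ± 0.17, adjusted p = 0.00233). Dnaja3 had 66.6, 42.1 and 48.2 CPM in WA against 22.7, 21.5 and 19.5 CPM in WC (log2 difference 1.3 ± 0.19, adjusted p = 0.00395). Stip1 couples HSP70 to HSP90, and it had 74.1, 69.7 and 66.8 CPM in WA against 24.8, 31.03 and 35.1 CPM in WC (log2 difference 1.21 ± 0.17, adjusted p = 0.00391). The inducible HSP70 gene Hspa1a had 5.80, 8.63 and 15.7 CPM in WA against 2.29, 2.11 and 2.04 CPM in WC, and its copy Hspa1b had 3.49, 7.64 and 9.34 CPM in WA against 0.967, 1.26 and 1.80 CPM in WC. As near-identical copies their separate values are uncertain. Hspa8, the constitutive HSP70, had 1257, 1324 and 1125 CPM in WA against 528, 510.3 and 610.1 CPM in WC (log2 difference 1.17 ± 0.22, adjusted p = 0.00804). Of the 8 genes called and named here, 7 also passed with each of the 6 libraries left out in turn, and the call was lost for 1 without WC_182 (adjusted p = 0.0555). In the heat shock list the 27 calls became 15 to 17 without WC_182 or WA_127 and 4 with scaling by library size alone.

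In the endoplasmic reticulum, 15 of 32 chaperone and unfolded protein response genes were called higher and 0 lower (median 0.65). Hspa5, the chaperone BiP, had 308, 227 and 332 CPM in WA against 113, 83.5 and 109.8 CPM in WC (log2 difference 1.5 ± 0.22, adjusted p = 0.00391). Manf, a secreted factor of ER stress, had 41.5, 39.7 and 44.1 CPM in WA against 14.4, 12.4 and 16.7 CPM in WC (log2 difference 1.53 ± 0.17, adjusted p = 0.00145). Pdia4, a disulphide isomerase, had 25.6, 26.1 and 34.4 CPM in WA against 10.9, 11.03 and 14.03 CPM in WC (log2 difference 1.26 ± 0.19, adjusted p = 0.00395). Of 49 proteasome subunits tested 23 were called higher and 0 lower (median 0.58). Psma1, of the core, had 69.9, 56.5 and 53.8 CPM in WA against 30.04, 24.7 and 29.7 CPM in WC (log2 difference 1.09 ± 0.17, adjusted p = 0.00442). Psmd14, the deubiquitinase of the lid, had 24.1, 20.3 and 22.3 CPM in WA against 13.3, 10.1 and 11.01 CPM in WC (log2 difference 0.95 ± 0.17, adjusted p = 0.00723). Of 23 muscle ubiquitin ligase and atrophy genes tested 7 were called higher and 0 lower. Klhl41, a ligase adaptor of the sarcomere, had 23.4, 22.1 and 18.5 CPM in WA against 8.66, 5.35 and 7.12 CPM in WC (log2 difference 1.6 ± 0.21, adjusted p = 0.00242). Trim72, a membrane-repair protein, had 134, 75.1 and 111 CPM in WA against 48.5, 36.3 and 30.4 CPM in WC (log2 difference 1.47 ± 0.24, adjusted p = 0.00511). With each of the 6 libraries left out in turn, 6 of the 7 genes called and named here also passed, and the call was lost for 1 without WC_182 (adjusted p = 0.0541). In the unfolded protein list the 15 calls became 5 to 6 without WC_182 or WA_127 and 0 with scaling by library size alone. In the proteasome list the 23 calls became 1 to 14 without WC_182, WA_127, WC_184 or WA_130 and 0 with scaling by library size alone. In the ubiquitin ligase list the 7 calls became 3 to 4 without WA_127, WC_182 or WC_184 and 0 with scaling by library size alone.

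Deubiquitinases remove ubiquitin from proteins, and the series' title names 1 of them. Of 33 tested 6 were called higher and 2 lower, with a median of 0.19, or -0.13 with scaling by library size alone. Josd2 had 53.9, 50.8 and 62.0 CPM in WA against 44.9, 62.9 and 45.9 CPM in WC (log2 difference 0.12 ± 0.18, adjusted p = 0.718), so the groups overlapped and the gene was not called. Its close relative Josd1 had 21.02, 19.5 and 18.8 CPM in WA against 11.8, 8.67 and 10.9 CPM in WC (log2 difference 0.92 ± 0.18, adjusted p = 0.00845). Uchl3, a ubiquitin hydrolase, had 21.1, 20.3 and 14.4 CPM in WA against 5.20, 5.19 and 6.98 CPM in WC (log2 difference 1.68 ± 0.21, adjusted p = 0.00233). Usp53 had 4.84, 5.61 and 4.38 CPM in WA against 8.38, 9.81 and 8.28 CPM in WC (log2 difference -0.84 ± 0.20, adjusted p = 0.0199). Cytosolic ribosomal proteins stood apart from these lists. Of 84 tested 0 were called higher and 1 lower, Rpl38 (log2 difference -0.69 ± 0.20, adjusted p = 0.0416), and the median was 0.00, or -0.31 with scaling by library size alone and -0.01 with DESeq2 size factors. Autophagy and lysosome genes gave 6 of 37 higher and 0 lower calls, led by Lamp1, a lysosomal membrane protein (251, 198 and 186.7 CPM in WA against 125, 84.7 and 94.3 CPM in WC, log2 difference 1.06 ± 0.21, adjusted p = 0.0108). Of the 5 genes called and named here, 1 also passed with each of the 6 libraries left out in turn, and the call was lost for 4 without WA_127 (adjusted p from 0.0516 to 0.169), 1 without WA_130 (adjusted p = 0.153), 1 without WC_3 (adjusted p = 0.0900), 4 without WC_182 (adjusted p from 0.0574 to 0.104) and 3 without WC_184 (adjusted p from 0.0551 to 0.116). In the deubiquitinase list the 8 calls became 1 to 3 without WA_127, WC_182, WC_184 or WA_130, 0 with scaling by library size alone and 5 with treatment as a covariate. In the autophagy list the 6 calls became 0 to 2 without WA_127, WC_182, WC_184 or WA_130, 10 without WA_132, 0 with scaling by library size alone and 10 by DESeq2.

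Calls were also found among structural and growth genes outside these groups. Of 27 microtubule and kinesin genes 8 were called higher and 0 lower, with a median of 0.41. Kif5b, a kinesin motor, had 71.9, 67.1 and 62.0 CPM in WA against 38.2, 31.2 and 29.02 CPM in WC (log2 difference 1.03 ± 0.17, adjusted p = 0.00495). Tuba8, an alpha-tubulin, had 119.9, 91.3 and 82.3 CPM in WA against 50.95, 48.4 and 50.6 CPM in WC (log2 difference 0.97 ± 0.18, adjusted p = 0.00858). In the cell cycle list 2 of 46 tested members were called higher (4.35%, below the 8.06% of all genes) and 0 lower. Both were D-type cyclins. Ccnd1 had 33.2, 44.3 and 51.6 CPM in WA against 21.5, 18.02 and 20.3 CPM in WC (log2 difference 1.11 ± 0.19, adjusted p = 0.00548). Ccnd2 had 67.4, 54.7 and 50.2 CPM in WA against 24.8, 24.2 and 26.6 CPM in WC (log2 difference 1.19 ± 0.17, adjusted p = 0.00375). Of the 20 tested genes of retinoic acid and steroid response 1 was called lower (5%, near the 5.25% of all genes) and 0 higher. It was Cyp26b1, which breaks down retinoic acid, with 2.29, 2.13 and 1.90 CPM in WA against 5.34, 10.9 and 10.7 CPM in WC (log2 difference -2.09 ± 0.29, adjusted p = 0.00331). Ptpru, a receptor tyrosine phosphatase, had 2.13, 3.72 and 3.63 CPM in WA against 15.8, 11.1 and 10.6 CPM in WC (log2 difference -1.98 ± 0.26, adjusted p = 0.00275). Ankrd23, a stretch-responsive relative of Ankrd1, had 379.5, 469.8 and 341 CPM in WA against 79.01, 80.7 and 87.4 CPM in WC (log2 difference 2.27 ± 0.21, adjusted p = 0.000661). Sh3bgr, a small muscle protein, had 133, 95.8 and 129 CPM in WA against 27.6, 27.5 and 30.6 CPM in WC (log2 difference 2.06 ± 0.19, adjusted p = 0.000661). Of the 8 genes called and named here, 7 also passed with each of the 6 libraries left out in turn, and the call was lost for 1 without WC_182 (adjusted p = 0.0574). In the microtubule list the 8 calls became 1 to 4 without WC_182, WA_127 or WC_184 and 0 with scaling by library size alone.

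Most red cell genes that were tested were called lower in WA. Of 16 haemoglobin and red cell genes 15 were tested, 11 (73.3%, against 5.25% of all genes) were called lower and 0 higher, and the median was -3.83, or -1.88 in the fit without mitochondrial and haemoglobin genes, which leaves the globins out of the list. Hbb-bs, an adult beta-globin, had 157, 172 and 42.7 CPM in WA against 2431, 991 and 2059.8 CPM in WC (log2 difference -3.88 ± 0.59, adjusted p = 0.00697), and the alpha-globin Hba-a1 had 118, 135 and 28.7 CPM in WA against 1979, 856 and 2187 CPM in WC (log2 difference -4.15 ± 0.67, adjusted p = 0.0111). The globin genes are near-identical pairs, so the split between copies is uncertain. Alas2, the first enzyme of haem synthesis in red cells, had 4.01, 6.36 and 0.926 CPM in WA against 68.9, 27.8 and 61.7 CPM in WC (log2 difference -3.83 ± 0.83, adjusted p = 0.0480). Bpgm, which makes the red cell metabolite 2,3-bisphosphoglycerate, had 11.2, 6.62 and 7.87 CPM in WA against 45.02, 17.8 and 31.8 CPM in WC (log2 difference -1.88 ± 0.33, adjusted p = 0.00896). Slc25a37, a mitochondrial iron carrier, had 33.6, 39.4 and 37.8 CPM in WA against 68.3, 74.7 and 77.5 CPM in WC (log2 difference -0.99 ± 0.16, adjusted p = 0.00465). Haemoglobin genes took 0.0364%, 0.0329% and 0.0144% of all counts in WA and 0.986%, 0.345% and 0.603% in WC. These shares did not overlap, and the two-sided exact permutation p of 0.1 is the smallest that 3 against 3 libraries can give. Of the 5 genes called and named here, 3 also passed with each of the 6 libraries left out in turn, and the call was lost for 2 without WA_127 (adjusted p from 0.0502 to 0.158), 1 without WA_130 (adjusted p = 0.0557), 2 without WC_3 (adjusted p from 0.0507 to 0.124), 1 without WC_182 (adjusted p = 0.0810) and 1 without WC_184 (adjusted p = 0.125). In the red cell list the 11 calls became 5 to 7 without WA_127 or WC_3 and 7 without mitochondrial and haemoglobin genes.

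Platelet genes were lower with them. Of 15 members 13 were tested, 7 (53.8%) were called lower and 0 higher, all 13 differences were negative and the median was -1.62. Ppbp, a chemokine stored in platelet granules, had 0.208, 0.411 and 0.426 CPM in WA against 7.46, 4.10 and 4.58 CPM in WC (log2 difference -3.94 ± 0.38, adjusted p = 0.000982). Alox12, the platelet lipoxygenase, had 5.26, 4.47 and 4.76 CPM in WA against 12.9, 14.3 and 17.4 CPM in WC (log2 difference -1.62 ± 0.19, adjusted p = 0.00191). Clec1b, a platelet receptor, had 0.955, 0.919 and 1.43 CPM in WA against 5.32, 2.47 and 4.23 CPM in WC (log2 difference -1.85 ± 0.35, adjusted p = 0.00815). Itga2b, a subunit of the fibrinogen receptor, had 0.868, 0.750 and 2.49 CPM in WA against 6.26, 3.90 and 5.16 CPM in WC (log2 difference -1.87 ± 0.43, adjusted p = 0.0179). Pf4, another granule chemokine, had 3.63, 3.36 and 5.52 CPM in WA against 7.79, 5.10 and 6.34 CPM in WC and was not called (log2 difference -0.62 ± 0.26, adjusted p = 0.138). The summed level of the list was 13.5 to 18.3 CPM in WA and 38.4 to 52.6 CPM in WC. Of the 4 genes called and named here, 2 also passed with each of the 6 libraries left out in turn, and the call was lost for 2 without WA_127 (adjusted p from 0.0556 to 0.0937), 1 without WA_130 (adjusted p = 0.0570), 1 without WC_182 (adjusted p = 0.0600) and 1 without WC_184 (adjusted p = 0.0568). In the platelet list the 7 calls became 3 to 4 without WA_127, WA_130, WC_182 or WC_184.

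Among neutrophil and mast cell markers 15 of 21 were tested, 5 were called lower and 0 higher (median -1.96). Csf3r, the receptor of granulocyte colony-stimulating factor, had 6.82, 7.59 and 3.99 CPM in WA against 33.8, 19.6 and 18.1 CPM in WC (log2 difference -1.96 ± 0.30, adjusted p = 0.00442). Cxcr2, a chemokine receptor of neutrophils, had 0.798, 0.677 and 0.676 CPM in WA against 5.91, 1.64 and 3.01 CPM in WC (log2 difference -2.29 ± 0.44, adjusted p = 0.00899). The calgranulin genes, which define neutrophils, were not called. S100a8 had 1.86, 1.64 and 1.48 CPM in WA and 51.7, 5.84 and 7.15 CPM in WC, and S100a9 had 4.11, 2.68 and 2.88 CPM in WA and 68.6, 9.44 and 10.1 CPM in WC. WC_3 stood far above the other 5 libraries in both. The mean level of the list relative to the 6 libraries, in log2 units, was -0.71, -0.79 and -1.09 in WA and 1.87, 0.36 and 0.37 in WC. Slfn4, a myeloid gene, had 1.48, 2.59 and 1.73 CPM in WA against 17.98, 4.39 and 5.64 CPM in WC (log2 difference -2.29 ± 0.57, adjusted p = 0.0393). The part of blood held in the vessels of each heart in these 3 lists was not tested. Of the 3 genes called and named here, 1 also passed with each of the 6 libraries left out in turn, and the call was lost for 2 without WA_127 (adjusted p from 0.0531 to 0.151), 1 without WA_130 (adjusted p = 0.0838) and 1 without WA_132 (adjusted p = 0.147). In the neutrophil list the 5 calls became 2 to 3 without WA_127, WC_182 or WA_130, 3 with at least 1 CPM in 3 libraries, 3 by limma-voom and 3 with treatment as a covariate.

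**Figure D5:**
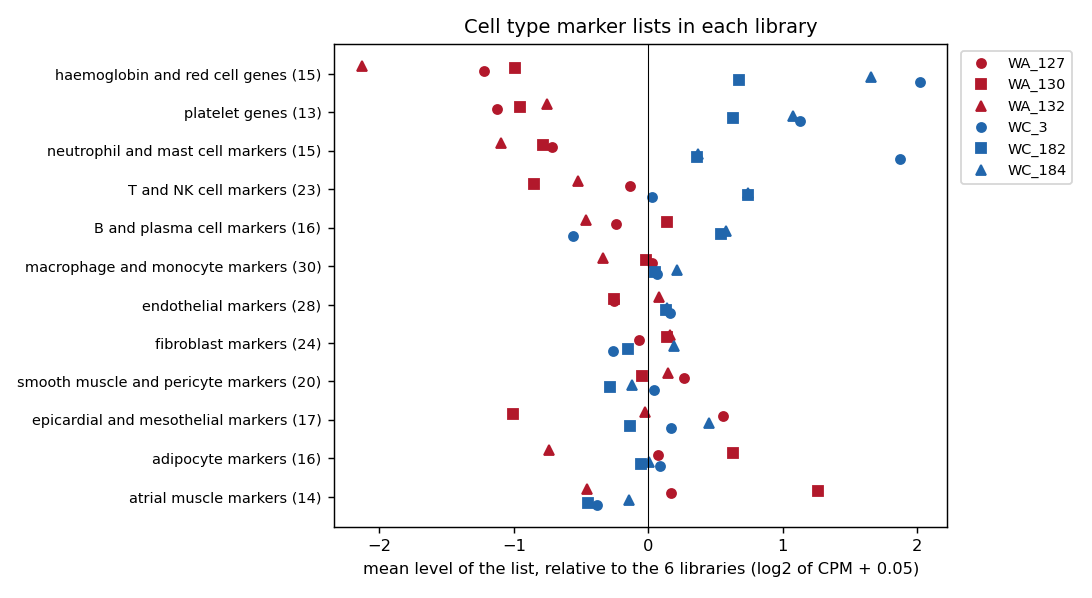
Mean level of 12 marker lists in each library (log2 of CPM + 0.05, centred on the 6 libraries, number tested in brackets), WA in red and WC in blue. Red cell, platelet and neutrophil lists show the widest gaps between the groups, macrophage and endothelial lists lie closer together, and WA_130 stands out in the atrial list.

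Markers of macrophages and of T, NK, B and plasma cells gave few calls, in shares near those of all genes. Whether such cells lay in the tissue or in blood held in its vessels was not tested. Macrophage and monocyte markers gave 2 lower and 0 higher calls of 30 (median -0.34). The lower share, 6.67%, is near the 5.25% of all genes. Csf1r, the receptor macrophages live by, had 19.8, 20.8 and 23.7 CPM in WA against 35.1, 29.4 and 30.9 CPM in WC (log2 difference -0.57 ± 0.16, adjusted p = 0.0391). Cd163, a haemoglobin scavenger receptor, had 7.20, 9.28 and 9.89 CPM in WA against 16.4, 14.96 and 13.7 CPM in WC (log2 difference -0.77 ± 0.19, adjusted p = 0.0203). The other defining macrophage genes, Adgre1 and C1qa, had differences of 0.49 ± 0.28 and -0.14 ± 0.19, and neither was called. T and NK cell markers gave 1 lower call of 23 tested of 28, Trbc2 (log2 difference -2.19 ± 0.60, adjusted p = 0.0339), and a median of -0.91. Of these 23 differences 21 were negative, and the summed level of the list was 8.68 to 11.8 CPM in WA and 12.1 to 21.4 CPM in WC. B and plasma cell markers gave 1 lower and 1 higher call of 16, Ighm (log2 difference -1.10 ± 0.22, adjusted p = 0.00970) and Blk (log2 difference 1.90 ± 0.40, adjusted p = 0.0124). Of 39 interferon-stimulated genes and 19 antigen presentation genes, 0 were called in either direction by edgeR (5 and 1 of them at an unadjusted p under 0.05, 3 and 1 called by DESeq2, 0 by limma-voom). With 1 library left out edgeR called 4 and 1 of them without WC_3 and 2 and 4 without WA_132. Complement and acute-phase genes gave 6 lower and 0 higher calls of 32, led by C4b, a complement component, with 18.2, 14.3 and 16.2 CPM in WA against 53.3, 39.9 and 39.8 CPM in WC (log2 difference -1.45 ± 0.18, adjusted p = 0.00233). Of the 6 genes called and named here, 1 also passed with each of the 6 libraries left out in turn, and the call was lost for 5 without WA_127 (adjusted p from 0.0520 to 0.147), 3 without WA_130 (adjusted p from 0.0554 to 0.121), 1 without WA_132 (adjusted p = 0.0617), 1 without WC_3 (adjusted p = 0.0873), 4 without WC_182 (adjusted p from 0.0620 to 0.125) and 3 without WC_184 (adjusted p from 0.0551 to 0.171). In the complement list the 6 calls became 1 to 3 without WC_182, WA_130 or WC_184 and 3 with scaling by library size alone. In the macrophage list the 2 calls became 0 to 1 without WA_130, WC_182, WC_184, WA_127 or WC_3, 0 with scaling by library size alone and 1 with treatment as a covariate.

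Endothelial markers gave 2 lower and 0 higher calls of 28, with a median of -0.30. The lower share, 7.14%, is near the 5.25% of all genes. Vwf, von Willebrand factor, which endothelium and platelets both hold, had 28.9, 16.6 and 25.5 CPM in WA against 76.3, 47.2 and 55.2 CPM in WC (log2 difference -1.33 ± 0.24, adjusted p = 0.00678). Eng, endoglin, had 192, 196 and 193 CPM in WA against 281, 309.6 and 360.1 CPM in WC (log2 difference -0.71 ± 0.19, adjusted p = 0.0313), while the defining genes Pecam1 and Cdh5 had differences of -0.18 ± 0.18 and -0.13 ± 0.21, neither of them called. Smooth muscle and pericyte markers gave 2 higher and 0 lower calls of 20, and the called members, Des and Pln, are also genes of heart muscle. Epicardial and mesothelial markers gave 2 lower and 0 higher of 17 tested. Wt1, an epicardial transcription factor, had 4.34, 8.15 and 5.66 CPM in WA against 11.97, 14.4 and 12.3 CPM in WC (log2 difference -1.10 ± 0.24, adjusted p = 0.0134). The other defining epicardial genes, Upk3b and Msln, had differences of 1.21 ± 0.60 and 0.19 ± 0.72, neither of them called (that of Msln was not stable in direction), and 8 of the 17 differences were positive. Schwann cell and neuron markers gave 2 higher and 2 lower of 18 tested, among them Prnp, the prion protein (log2 difference 1.13 ± 0.18, adjusted p = 0.00439), and Cdh19, a Schwann cell cadherin (log2 difference -1.14 ± 0.22, adjusted p = 0.00976). Of the 5 genes called and named here, 2 also passed with each of the 6 libraries left out in turn, and the call was lost for 3 without WA_127 (adjusted p from 0.0562 to 0.110), 1 without WA_130 (adjusted p = 0.103), 3 without WC_182 (adjusted p from 0.0644 to 0.0947) and 1 without WC_184 (adjusted p = 0.131). In the endothelial list the 2 calls became 1 without WA_127, WA_130, WC_182 or WC_184, 4 without WA_132, 1 with scaling by library size alone, 4 with at least 1 CPM in 3 libraries and 7 by DESeq2. In the smooth muscle list the 2 calls became 0 to 1 without WC_182, WA_127, WA_130, WC_184 or WC_3, 0 with scaling by library size alone and 1 with treatment as a covariate. In the epicardial list the 2 calls became 0 to 1 without WC_182, WA_127, WA_130, WC_184 or WC_3 and 0 with scaling by library size alone. In the Schwann cell list the 4 calls became 1 to 2 without WA_127, WC_182, WA_130 or WC_184, 0 with scaling by library size alone and 2 with treatment as a covariate.

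The tissue label was checked against its defining markers. Myh6 had 16335, 14553 and 13200.0 CPM in WA and 9411, 14560.0 and 12862 CPM in WC, and Tnnt2, cardiac troponin T, had 8534, 6593 and 5979 CPM in WA and 4310.1, 4754 and 5000.0 CPM in WC. The protocol text names an adipose type, and the defining adipocyte genes were low. Adipoq, adiponectin, had 0.174, 0.411 and 0 CPM in WA and 0.130, 0.208 and 0.123 CPM in WC, Plin1, a lipid droplet protein, 0.0694, 0.943 and 0 CPM in WA and 0.118, 0.134 and 0.211 CPM in WC, and Cfd, adipsin, 0.312, 2.59 and 0 CPM in WA and 0.519, 0.164 and 0.652 CPM in WC. The whole adipocyte list, with 16 of 21 members tested, 2 called higher and 1 lower, summed to 4602 to 5446 CPM in WA and 3188 to 4626 CPM in WC, most of it from Lpl and Fabp4, which heart muscle and vessels also express. Its mean level relative to the 6 libraries was 0.07, 0.63 and -0.74 in WA and 0.09, -0.06 and 0.01 in WC, so that WA_130 was highest and WA_132 lowest. In the adipocyte list the 3 calls became 0 to 1 without WA_127, WC_182, WC_184 or WA_132, 0 with scaling by library size alone and 5 by DESeq2. Atrial muscle genes set 1 library apart. Myl7, the atrial regulatory light chain, had 0.399, 48.4 and 0 CPM in WA and 0.319, 0.416 and 0.564 CPM in WC, Myl4, the atrial essential light chain, 2.76, 66.1 and 2.78 CPM in WA and 1.58, 1.40 and 2.87 CPM in WC, and Sln, the atrial regulator of the calcium pump, 0, 35.5 and 0 CPM in WA and 0.0826, 0.164 and 0.0529 CPM in WC. These 3 genes and Bmp10 are the defining atrial markers used here, and the 3 were grouped by their values. WA_130 stood far above the other 5 libraries in all 3. The mean level of the whole atrial list relative to the 6 libraries was 0.17, 1.26 and -0.45 in WA and -0.38, -0.45 and -0.15 in WC. Nppa, which atria also express, was lowest among the WA libraries in WA_130. Bmp10, an atrial hormone, was near the floor in every library, with 0 counts in each WA library and 3, 4 and 4 counts in WC. Without WA_130 the differences of Acta1, Ankrd1, Nppb and Nppa stayed called, as stated above. The part of this atrial signal in the other results was not tested.

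For the treatment label, Ang II minus PBS, edgeR called 0 of 18111 genes with the title letters as a covariate (1658 had an unadjusted p under 0.05) and 0 without them. With the covariate limma-voom called 0 and DESeq2 called 120, 24 of them higher and 96 lower with the Ang II label. Among the lower ones were mt-Co1, mt-Atp6, mt-Nd6 and mt-Nd2 (log2 differences -1.105, -1.33, -1.39 and -1.54). The letters and the treatment labels do not run in parallel. Whether the treatment label of any of these libraries is as intended could not be checked from the sources used here. Every value by treatment therefore rests on the labels as given. The hypertrophy genes that separated WA from WC had treatment differences of 0.09 (adjusted p = 0.937) for Acta1, -0.70 (adjusted p = 0.516) for Ankrd1, -0.71 (adjusted p = 0.512) for Nppb and -0.35 (adjusted p = 0.809) for Nppa. Kmo, the kynurenine enzyme whose symbol appears in the label of the KKA libraries, was not called between WA and WC (log2 difference 0.48 ± 0.53, adjusted p = 0.590). With treatment as a covariate the WA minus WC calls of Acta1, Ankrd1, Nppb, Nppa, Tnfrsf12a and Ppbp had adjusted p of 1.47e-05, 0.000967, 0.000967, 0.00389, 0.000434 and 0.00148. Treatment and letters interacted in 12 genes (0.0663% of those tested). Since WA holds 1 library labelled Ang II and WC holds 1 labelled PBS, each interaction rests on those 2 libraries.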

How the data were processed

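Whole-number counts per gene for 9 mouse heart libraries were deposited by the authors as 1 table of 55401 Ensembl genes. The labels describe poly(A) libraries read in pairs. The submitters' processing notes name HISAT2 2.0, StringTie 1.3.0, Bowtie 0.12.2 and the build mm8 without their roles. The sources used here do not give the counting step, the annotation or the use of strand, so reads of overlapping, antisense or near-identical genes cannot be told apart.

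Groups were the letters that open the sample title, and the 6 WA and WC libraries (56827533 to 68297638 counts) were fitted alone. Gene symbols came from a GENCODE table and matched 55141 genes. Genes that passed edgeR's filterByExpr (18111) were scaled by TMM (factors 0.672 to 1.359) and tested with edgeR's robust quasi-likelihood test, Benjamini-Hochberg adjusted over all of them. The standard error restates the test (log2 difference divided by the root of F). The script was tested on simulated data. Alternatives were DESeq2 and its size factors, limma-voom, library size alone, no filter, at least 1 CPM in 3 libraries, all 9 libraries, the treatment label as a covariate, mitochondrial and haemoglobin genes left out, and each library left out.

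The members and the 69 gene lists were chosen with earlier results of these data known. Genes are named by a rule. It takes 24 index genes, the 15 highest and 15 lowest differences among called genes with a mean of at least 1 log2 CPM and no overlap between groups, the 10 smallest p, the 15 most abundant called genes, and up to 6 called members of each list. Some genes that it takes are not reported here. Ankrd2, Lpl, Fabp4 and the defining markers of cell types are named beside it. The 3 genes that were at 0 counts in all libraries of 1 group did not move the median of their lists when set to a floor of 3 counts per library. Analyses used R 4.3.3, edgeR 4.0.16, limma 3.58.1, DESeq2 1.42.0, Python 3.11.15, pandas 2.3.3, scipy 1.17.1 and matplotlib 3.10.9.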

Additional observations from a re-analysis of the deposited data

Results flagged for a closer look

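The test of whether the Ang II minus PBS difference was unlike in WA and in WC hearts called 12 of 18111 genes with edgeR. None of these 12 genes was called between WA and WC. In WC_184, the WC library labelled PBS, Zfp91 had 6 counts against 2609 to 5469 in the other libraries (adjusted p = 0.00112). Heyl, a Notch effector, had 20 counts there against 878 to 2069 (adjusted p = 0.00594), and Lpgat1, a lipid acyltransferase, had 147 against 1854 to 3329 (adjusted p = 0.0127). The unnamed transcript E130102H24Rik had 0 counts there (adjusted p = 0.0155). In WA_132, the WA library labelled Ang II, Twsg1, a BMP antagonist, had 27 counts against 1663 to 2868 (adjusted p = 0.00185). Gm45140 had 16 counts there (adjusted p = 0.00594), Zfp628 had 0 (adjusted p = 0.00594), Ctdspl had 33 (adjusted p = 0.0435) and Cpne1 had 128 (adjusted p = 0.0481). Slc51a, a steroid and bile acid transporter subunit, had 547 counts there against 13 to 63 elsewhere (adjusted p = 0.0481). Usp50 had 0 counts in both WA_132 and WC_184 and 86 to 550 in the others (adjusted p = 0.0118). Gm10774 had 1 count in WC_3 and in WC_182 and 72 to 203 in the others (adjusted p = 0.0499). In 11 of the 12 genes a value far from the others stood in 1 or both of the libraries that are alone in their treatment label, and the exception is Gm10774.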

How the results depend on the processing

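The direction of all 2409 called genes held in each fit that left out 1 library. That was nearly fixed in advance, since 2401 of them did not overlap between the groups. The number of calls ran from 459 to 2980. With scaling by library size alone 232 genes were called, and with all 9 libraries 0. Of the 167 called genes named in the text, none changed direction under any alternative. Of these, 118 lost the call with scaling by library size alone, all 167 with 9 libraries, 56 without WA_127, 29 without WA_130, 7 without WA_132, 12 without WC_3, 63 without WC_182 and 35 without WC_184. At most 8 lost it under each of DESeq2, limma-voom, DESeq2 size factors, other count filters and the treatment covariate. For the treatment label the 0 calls of edgeR became 120 with DESeq2, and 0 to 35 with 1 library left out. The 12 interaction calls became 37 with DESeq2 and 0 with limma-voom. The cause of these changes was not tested. The mitochondrial share differed by -3.11 to 8.03 percentage points with 1 library left out, turning to -3.11 without WA_130 and -1.81 without WC_3. The haemoglobin share differed by -0.767 to -0.446. Genes not called turned sign in places. Ryr2 had -0.39 with scaling by library size alone, -0.00593 with all 9 libraries, -0.011 with at least 1 CPM in 3 libraries and with no filter, -0.00116 with DESeq2, -0.00114 with its size factors, and -0.15 to 0.13 with 1 library left out. Agtr1a had -0.094 with scaling by library size alone, -0.12 with the treatment covariate, and -0.38 (without WC_3) to 0.62 with 1 library left out. With that scaling Josd2 had -0.17, Myh6 -0.057 and Msln -0.21. Msln had -0.13 with limma-voom and -0.92 (without WA_127) to 0.82 with 1 library left out. No paired analysis was possible because the libraries of WA and WC share no replicate number. Leaving out 1 library leaves 2 against 3, and the depth limits what can be read from genes near the count filter.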

Other observations

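Targets of the YAP and SRF factors overlapped with the stretch-responsive genes. Of 30 tested members 4 were called higher and 0 lower, with a median of 0.12, or -0.23 with scaling by library size alone, and Ankrd1, Ccn2 and Srf are 3 of them. The other, Ccn1, a matricellular protein, had 38.1, 49.95 and 41.5 CPM in WA against 17.5, 22.4 and 14.6 CPM in WC (log2 difference 1.25 ± 0.19, adjusted p = 0.00433). Aminoacyl-tRNA synthetases, which load amino acids for translation, gave 5 of 17 higher and 0 lower calls (median 0.49), among them Gars (log2 difference 0.62 ± 0.16, adjusted p = 0.0269) and Nars (log2 difference 0.66 ± 0.17, adjusted p = 0.0273). Of 26 tested genes of one-carbon metabolism and the amino acid stress response 3 were called higher and 0 lower. Pycr1, an enzyme of proline synthesis, had 0.417, 0.653 and 0.864 CPM in WA against 0.0708, 0.104 and 0.176 CPM in WC (log2 difference 2.47 ± 0.66, adjusted p = 0.0318). Eif4ebp1, a brake on translation, had 55.7, 53.6 and 34.8 CPM in WA against 25.7, 19.1 and 29.8 CPM in WC (log2 difference 0.95 ± 0.22, adjusted p = 0.0186). Of the 5 genes called and named here, 1 also passed with each of the 6 libraries left out in turn, and the call was lost for 4 without WA_127 (adjusted p from 0.0710 to 0.119), 3 without WA_130 (adjusted p from 0.0587 to 0.0736), 1 without WA_132 (adjusted p = 0.102), 1 without WC_3 (adjusted p = 0.0733), 4 without WC_182 (adjusted p from 0.0979 to 0.122) and 3 without WC_184 (adjusted p from 0.0601 to 0.111). In the synthetase list the 5 calls became 0 to 1 without WA_127, WC_182, WC_184 or WA_130, 8 without WA_132, 0 with scaling by library size alone, 3 with treatment as a covariate and 8 by DESeq2. In the one-carbon list the 3 calls became 1 without WA_127 or WC_182 and 0 with scaling by library size alone.

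Lipid synthesis genes went both ways, with 5 of 34 tested members higher and 3 lower (median 0.12, or -0.20 with scaling by library size alone). Cyp51, of cholesterol synthesis, had 5.95, 4.57 and 5.52 CPM in WA against 3.14, 1.86 and 2.64 CPM in WC (log2 difference 1.07 ± 0.26, adjusted p = 0.0219). Cers4, a ceramide synthase, had 34.4, 32.5 and 36.6 CPM in WA against 53.9, 67.4 and 57.7 CPM in WC (log2 difference -0.79 ± 0.16, adjusted p = 0.0112). Among p53 and DNA damage targets 2 of 27 tested were higher and 1 lower. These shares, 7.41% and 3.70%, lie near the 8.06% and 5.25% of all genes and are not read as a trait of the list. Ccng1, cyclin G1, had 429, 346 and 296 CPM in WA against 174, 117 and 152 CPM in WC (log2 difference 1.27 ± 0.23, adjusted p = 0.00654). Ddb2, a DNA damage sensor, had 5.21, 6.72 and 8.65 CPM in WA against 14.9, 18.2 and 17.2 CPM in WC (log2 difference -1.29 ± 0.21, adjusted p = 0.00495). Hypoxia-responsive genes gave 2 higher and 1 lower of 21 tested (9.52% and 4.76%, also near the shares of all genes). The called gene with the smallest p was P4ha1, a collagen prolyl hydroxylase (33.8, 39.3 and 60.7 CPM in WA against 19.3, 18.6 and 23.2 CPM in WC, log2 difference 1.13 ± 0.22, adjusted p = 0.00963). Of the kynurenine and NAD genes 1 of 20 tested was higher (5%, below the 8.06% of all genes) and 0 lower. It was Nmrk2, a muscle kinase that makes NAD from nicotinamide riboside, with 3.31, 4.01 and 4.66 CPM in WA against 2.17, 1.53 and 0.722 CPM in WC (log2 difference 1.43 ± 0.37, adjusted p = 0.0277). Of the 6 genes called and named here, 2 also passed with each of the 6 libraries left out in turn, and the call was lost for 3 without WA_127 (adjusted p from 0.0603 to 0.103), 2 without WA_130 (adjusted p from 0.0526 to 0.0726), 1 without WA_132 (adjusted p = 0.0577), 4 without WC_182 (adjusted p from 0.0655 to 0.114) and 2 without WC_184 (adjusted p from 0.0697 to 0.0733). In the lipid synthesis list the 8 calls became 0 to 5 without WA_127, WC_182, WC_184, WA_130 or WA_132, 0 with scaling by library size alone, 4 with treatment as a covariate and 13 by DESeq2. In the p53 list the 3 calls became 0 with scaling by library size alone. In the hypoxia list the 3 calls became 1 without WA_127, WA_130, WC_182 or WC_184, 6 without WC_3, 0 with scaling by library size alone and 6 by DESeq2.

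Cytokine, chemokine and receptor genes gave 2 higher and 3 lower calls of 44 tested. These shares were 4.55% and 6.82%, against 8.06% and 5.25% of all genes. Beside Tnfrsf12a, Ackr3, a scavenger receptor of chemokines, rose, with 50.97, 70.5 and 48.4 CPM in WA against 21.2, 24.3 and 26.3 CPM in WC (log2 difference 1.24 ± 0.19, adjusted p = 0.00407). Csf2rb, a receptor chain of myeloid growth factors, had 1.94, 1.62 and 2.08 CPM in WA against 7.16, 3.72 and 4.92 CPM in WC (log2 difference -1.48 ± 0.29, adjusted p = 0.00966). Of 19 circadian clock genes 0 were called by edgeR, 3 had an unadjusted p under 0.05, DESeq2 called 1 and limma-voom 0, with a median of 0.21, or -0.13 with scaling by library size alone. Meg3, a noncoding RNA, was the single call of 14 tested noncoding RNAs of the heart (14.7, 18.8 and 15.9 CPM in WA against 22.5, 29.4 and 33.2 CPM in WC, log2 difference -0.79 ± 0.19, adjusted p = 0.0204). That is a lower share of 7.14%, near the 5.25% of all genes. Of the 3 genes called and named here, 1 also passed with each of the 6 libraries left out in turn, and the call was lost for 2 without WA_127 (adjusted p from 0.0536 to 0.102), 1 without WC_182 (adjusted p = 0.0965) and 1 without WC_184 (adjusted p = 0.0929). In the cytokine list the 5 calls became 3 without WA_127 or WC_182, 3 with scaling by library size alone and 10 by DESeq2.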
